A study of Mus musculus with 6 samples.

Results

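The 7 genes described here encode core proteins of mitochondrial fusion and fission: Mfn1, Mfn2, Opa1, Dnm1l, Fis1, Mff and Oma1. They were chosen by name, with earlier results of these data known, and each matched 1 of the 52550 rows of the deposited gene table. All 7 had a mean of at least 1 FPKM (fragments per length of transcript and per library total) and so were among the 9907 genes tested. RNA came from the left ventricle of C57BL/6J mice at 12 months of age. Of the 6 libraries, 3 carried the label PKI, given as PGC-1α overexpressed, and 3 the label wild-type (WT), and the labels used here name no other allele or treatment. They give neither the promoter behind the overexpression nor whether libraries of a group are from different animals, so the p-values reflect the spread among these libraries and may be technical.

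Mitochondria form a network that is remodelled by fusion and division. The mitofusins MFN1 and MFN2 are GTPases that join outer membranes, and OPA1 is the dynamin-like GTPase that joins inner membranes and shapes cristae. The stress-activated protease OMA1 cleaves OPA1. Division is carried out by the dynamin-like GTPase DRP1, encoded by Dnm1l, which is recruited from the cytosol to the outer membrane by receptors such as MFF, while FIS1 is an outer membrane protein linked to division. In heart muscle, where mitochondria are packed between myofibrils, loss of both mitofusins or of DRP1 in mice leads to cardiomyopathy. PGC-1α, a transcriptional coactivator of mitochondrial genes, raises mitofusin expression together with estrogen-related receptors in muscle cells.

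The gene named by the labels did not show the stated overexpression. Ppargc1a, which encodes PGC-1α, was at 11.6, 11.8 and 11.4 FPKM in the libraries labelled PKI and at 14.2, 12.8 and 12.4 FPKM in WT libraries. Its log2 change was −0.16 (SE 0.07) and did not pass (limma, adjusted p = 0.0967); after the scaling described next it was −0.42 (limma, adjusted p = 0.00663). Whether the labels were exchanged, or the overexpression is absent or from a transcript outside these values, was not tested. An exchange would turn every direction below, and directions are those of the PKI label against the WT label. The depth of the libraries is unknown. Transcripts of the mitochondrial genome and their nuclear copies took 78.0% to 78.2% of all FPKM in PKI libraries and 81.8% to 82.3% in WT libraries, and the changes of all tested genes were shifted upwards, with a median log2 change of 0.21 as deposited and 0.00 after division by median-of-ratios size factors (1.09 to 1.11 in PKI libraries and 0.903 to 0.923 in WT libraries). Both values are therefore given for each gene.

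Of the 7 genes, Mfn2 was lower in PKI libraries and the other 6 did not pass the test. Of all tested genes, 39.4% passed in either direction, 36.4% higher and 2.96% lower in PKI libraries. The median log2 change of the 7 genes was 0.09, beside 0.21 for all tested genes. After scaling, Mfn2 and Opa1 were called lower and 0 of the 7 higher, where 16.8% of all tested genes were called, 8.23% lower and 8.54% higher, and the medians were −0.16 for the 7 genes and 0.00 for all. Scaling to the total without mitochondrial genome genes and their nuclear copies also called Mfn2 and Opa1 lower and 0 of the 7 higher, where 6.09% of all tested genes were called lower and 10.3% higher. In bulk tissue, fewer cells of a type and less RNA per cell cannot be told apart.

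Mfn2 (ENSMUSG00000029020, chromosome 4: 147873599 to 147904704, minus strand, GRCm38), the mitofusin that also tethers mitochondria to the endoplasmic reticulum, had the highest level of the 7 genes. It was at 66.8, 67.9 and 64.7 FPKM in PKI libraries, against 74.3, 82.7 and 80.8 FPKM in WT libraries. All PKI values lay below all WT values, which held for 4.53% of tested genes. The means were 66.5 ± 1.67 FPKM in PKI libraries and 79.3 ± 4.40 FPKM in WT libraries (SD, n = 3 each), a ratio of 0.839. The log2 change on log2(FPKM + 1) was −0.25 (SE 0.06, 95% interval −0.39 to −0.10; limma, adjusted p = 0.0195), with p = 0.1 in an exact two-sided permutation test, which cannot go lower with 20 arrangements of 3 against 3. The change of Mfn2 stood at the 3.98th percentile of the changes of all tested genes. The call was lost in 4 of the 6 fits that left out a library, namely without PKI replicate 1 (adjusted p = 0.0513), PKI replicate 3 (0.0682), WT replicate 2 (0.0570) or WT replicate 3 (0.0640). After scaling the log2 change was −0.52 (limma, adjusted p = 0.00285).

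Mfn1 (ENSMUSG00000027668, chromosome 3: 32529465 to 32579239, plus strand), the mitofusin with the stronger tethering activity, did not pass. It was at 27.6, 33.8 and 26.6 FPKM in PKI libraries and at 27.4, 30.2 and 26.7 FPKM in WT libraries. The groups overlapped, and PKI replicate 2 was the highest of all 6 libraries. The log2 change was 0.05 (SE 0.10, 95% interval −0.18 to 0.29; limma, adjusted p = 0.679), and it was −0.05 without PKI replicate 2. After scaling it was −0.21 (limma, adjusted p = 0.194).

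Opa1 (ENSMUSG00000038084, chromosome 16: 29579334 to 29654884, plus strand) was at 19.6, 20.6 and 19.4 FPKM in PKI libraries, against 21.4, 20.1 and 19.9 FPKM in WT libraries. The ranges overlapped, with a log2 change of −0.04 (SE 0.06, 95% interval −0.18 to 0.11; limma, adjusted p = 0.625). Its call depended on the scaling. With median-of-ratios size factors the log2 change was −0.30 (95% interval −0.43 to −0.17; limma, adjusted p = 0.0140), and all scaled PKI values (17.8, 18.6 and 17.8) lay below all scaled WT values (23.2, 22.3 and 22.0), as they did for 18.4% of tested genes. Oma1 (ENSMUSG00000035069, chromosome 4: 103313812 to 103371868, plus strand) was at 9.91, 10.3 and 9.43 FPKM in PKI libraries and at 9.16, 9.20 and 9.35 FPKM in WT libraries. Each PKI value lay above each WT value, as it did for 51.3% of tested genes. The log2 change of 0.09 (SE 0.06, 95% interval −0.06 to 0.23) did not pass (limma, adjusted p = 0.284). After scaling the order was the opposite, with the log2 change at −0.16 (limma, adjusted p = 0.117).

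The fission genes did not pass in either fit. Dnm1l (ENSMUSG00000022789, chromosome 16: 16312230 to 16358959, minus strand) was at 24.9, 27.5 and 28.2 FPKM in PKI libraries, against 25.6, 22.1 and 23.9 FPKM in WT libraries. The groups overlapped through PKI replicate 1 and WT replicate 1, with a log2 change of 0.17 (SE 0.08, 95% interval −0.02 to 0.35; limma, adjusted p = 0.130) and of −0.10 after scaling. Fis1 (ENSMUSG00000019054, chromosome 5: 136953275 to 136966234, plus strand) was at 15.36, 16.97 and 16.16 FPKM in PKI libraries and at 14.91, 14.95 and 14.35 FPKM in WT libraries. All PKI values lay above all WT values, as they did for 51.3% of tested genes. The log2 change of 0.12 (SE 0.06, 95% interval −0.02 to 0.27; limma, adjusted p = 0.152) did not pass. It was −0.13 after scaling, with the groups apart in the other direction, as for 18.4% of tested genes. Mff (ENSMUSG00000026150, chromosome 1: 82724890 to 82752394, plus strand), the receptor for DRP1, was at 4.15, 5.40 and 3.96 FPKM in PKI libraries and at 4.27, 3.43 and 3.50 FPKM in WT libraries. Its libraries spread widely and overlapped. The log2 change was 0.21 (SE 0.12, 95% interval −0.07 to 0.49; limma, adjusted p = 0.188) as deposited and −0.01 after scaling, the same as the median of all genes to within 0.01 in both fits. The kit does not mark strand, and in GENCODE M21 an antisense transcript shares 243 exonic bases with Dnm1l (Gm49521, not used here) and 195 with Mff (C430014B12Rik, at most 0.0358 FPKM in any library), so reads of these stretches cannot be assigned.

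**Figure D1:**
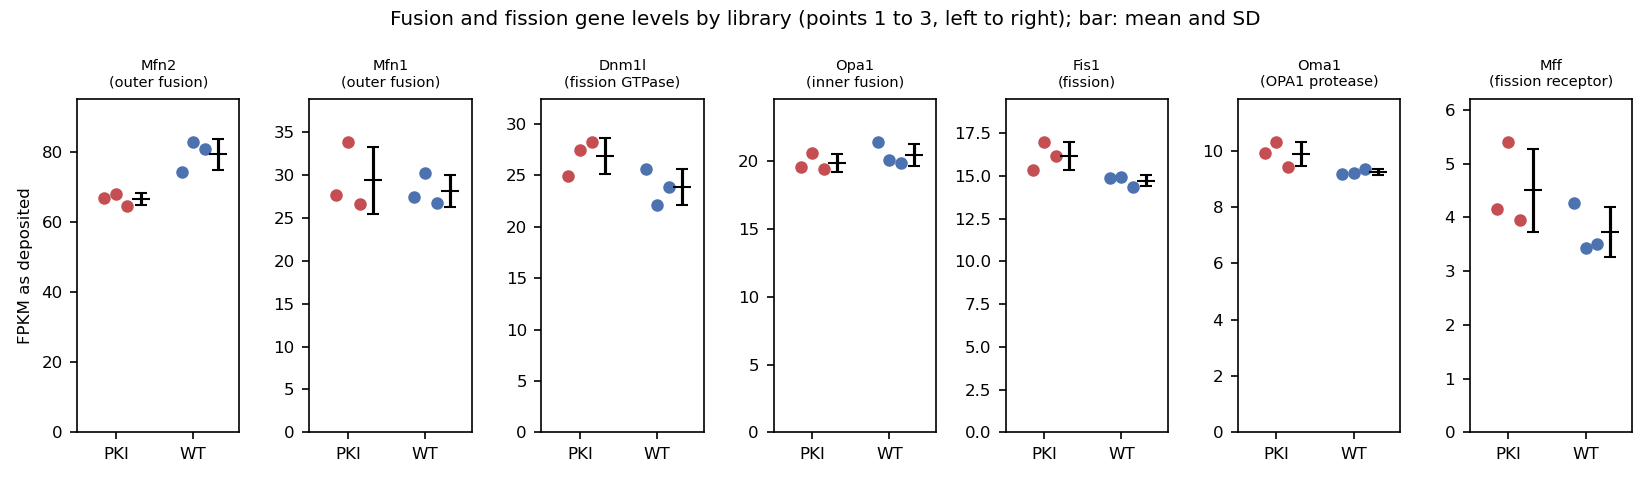
FPKM as deposited (vertical axes, linear from 0) of each of the 7 genes in the 3 PKI libraries (red, left) and the 3 WT libraries (blue, right), with replicates 1 to 3 from left to right and the mean and SD beside them. Mfn2 is between 64.7 and 67.9 FPKM in PKI libraries, below the 74.3 to 82.7 FPKM of WT libraries, while the values of Mfn1, Dnm1l, Opa1 and Mff overlap.

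**Figure D2:**
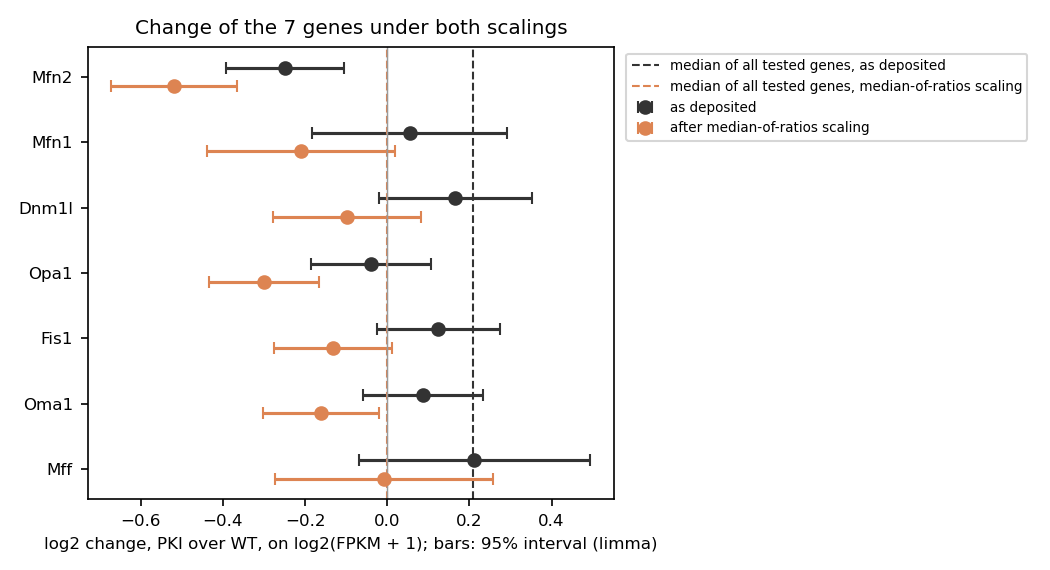
Log2 change of each gene, PKI over WT (horizontal axis, log2(FPKM + 1) scale), with 95% intervals from limma, as deposited (black) and after median-of-ratios scaling (orange); dashed lines are the medians of all 9907 tested genes. The interval of Mfn2 lies below 0 in both fits, and the 5 genes with a positive change as deposited have a negative one after scaling.

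Because FPKM are scaled by length, levels can be set side by side between genes. The order by mean FPKM was the same in both groups: Mfn2, Mfn1, Dnm1l, Opa1, Fis1, Oma1 and Mff. In PKI libraries the values of Mfn1 and Dnm1l overlapped and all other neighbours were apart. In WT libraries no neighbours overlapped. Mean Mfn2 FPKM was 2.27 times that of Mfn1 in PKI libraries and 2.82 times in WT libraries. The 7 genes together summed to 168 to 182 FPKM in PKI libraries and 177 to 183 FPKM in WT libraries. Mfn2 made up 39.7%, 37.2% and 38.4% of that sum in PKI libraries, against 42.0%, 45.3% and 45.3% in WT libraries. These shares, which do not depend on the scaling of a library, did not overlap. They restate the change of Mfn2 against the other genes of the sum and are not a separate result.

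Ratios of FPKM within a library are also free of the scaling. The Mfn1 to Mfn2 ratio was 0.414, 0.497 and 0.411 in PKI libraries, against 0.369, 0.365 and 0.331 in WT libraries. All PKI ratios were higher, by 0.31 on the log2 scale (SD between replicates 0.13; exact two-sided permutation p = 0.1, the smallest possible, and 0.156 adjusted over 14 ratios). The Opa1 to Dnm1l ratio, inner membrane fusion against the fission GTPase, was 0.786, 0.751 and 0.688 in PKI libraries, against 0.835, 0.911 and 0.832 in WT libraries. It was lower in all PKI libraries, with a log2 difference of −0.21 (SD 0.09; exact permutation p = 0.1, adjusted 0.156). The Opa1 to Oma1 ratio, substrate against protease at the RNA level, was 1.978, 2.0045 and 2.057 in PKI libraries, against 2.336, 2.188 and 2.125 in WT libraries, again without overlap (log2 difference −0.14, SD 0.05; exact permutation p = 0.1, adjusted 0.156). The other 4 ratios between genes overlapped: Mff to Fis1, Oma1 to Yme1l1 (a second protease that cleaves OPA1), Dnm1l to Mff and Dnm1l to Fis1 had log2 differences of 0.13, −0.07, −0.09 and 0.04, with exact permutation p-values of 0.4 to 0.8. With 3 libraries against 3, no ratio could pass 0.05 in this test. Of the 7 ratios between genes, 3 had the groups apart. That share was not computed over all pairs of genes, so the count is a description only. Among single genes after scaling, all PKI values lay above all WT values for 18.6% and below them for 18.4%.

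Cs, which encodes citrate synthase of the mitochondrial matrix, was used as a denominator from the same organelle. Its level was 154, 145 and 145 FPKM in PKI libraries, against 173, 170 and 162 FPKM in WT libraries (log2 change −0.18, SE 0.05; limma, adjusted p = 0.0354). Relative to Cs, Mfn2 was at 0.434, 0.470 and 0.446 in PKI libraries and at 0.430, 0.486 and 0.500 in WT libraries, so the groups overlapped (log2 difference −0.07, SD 0.09; exact permutation p = 0.5). The ratios of the other 6 genes to Cs lay higher in all 3 PKI libraries, with log2 differences from 0.14 (Opa1) to 0.45 (Mff) and exact permutation p = 0.1 for each, 0.156 adjusted over the 14 ratios. These ratios share Cs as their denominator, and a ratio to Cs lay higher in all PKI libraries for 70.9% of tested genes and lower for 1.61%. The median log2 difference over all genes was 0.46, above that of each of the 7 genes, so the count of 6 says little about them. The channel gene Vdac1 and the mitochondrial DNA-binding factor gene Tfam were at log2 −0.02 and −0.06 and did not pass (limma, adjusted p = 0.791 and 0.527). After scaling, Cs, Vdac1 and Tfam were all lower in PKI libraries (log2 −0.46, −0.29 and −0.29; limma, adjusted p = 0.00242, 0.0146 and 0.0274).

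**Figure D3:**
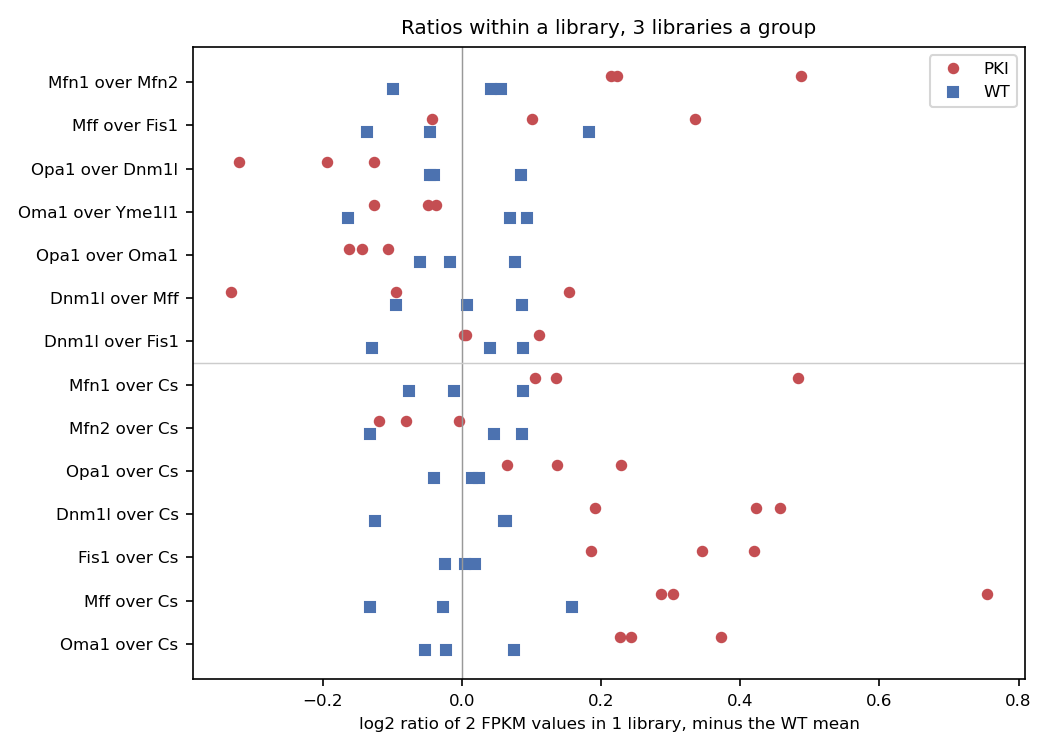
Log2 ratios of FPKM between pairs of genes within each library, minus the mean of the 3 WT libraries (horizontal axis); red circles are PKI libraries, blue squares WT libraries, and the lower block holds ratios to Cs. Mfn1 over Mfn2 lies higher and Opa1 over Dnm1l lower in all 3 PKI libraries, and Mfn2 over Cs overlaps.

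Other genes of mitochondrial dynamics were read from 5 lists with 47 genes, of which 42 were tested. As deposited, 9 were higher in PKI libraries, 2 were lower and 31 did not pass; their median log2 change was 0.10. After scaling, 1 was higher and 9 were lower, with a median of −0.14. Of all tested genes, 36.4% were called higher and 2.96% lower as deposited, and 8.54% and 8.23% after scaling. Most directions in these lists therefore depended on the scaling, and the genes called lower as deposited, Pink1 and Mtfp1, were lower in both fits.

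Among 5 tested genes of outer membrane fusion and its ubiquitin ligases, 1 rose and 1 fell (0 higher and 1 lower after scaling; median log2 change 0.02, and −0.21 after scaling). Pink1, the kinase that accumulates on damaged mitochondria and has MFN2 among its substrates, was at 89.0, 88.5 and 86.5 FPKM in PKI libraries, against 112, 130 and 129 FPKM in WT libraries. It fell without overlap to 0.711 of its WT mean (log2 change −0.48, SE 0.07, limma adjusted p = 0.00330). After scaling its log2 change was −0.76 (limma, adjusted p = 0.00151). March5, an outer membrane ubiquitin ligase that acts on mitofusins and DRP1, was at 19.1, 19.8 and 18.9 FPKM in PKI libraries and at 15.2, 13.8 and 14.4 FPKM in WT libraries (log2 change 0.39, SE 0.06; limma, adjusted p = 0.00463), and was not called after scaling (log2 0.13, adjusted p = 0.173). Park2, the ubiquitin ligase activated by PINK1, and Pld6 were below the level for testing.

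Of 10 genes of inner membrane fusion and OPA1 processing, 3 rose and 0 fell (0 higher and 1 lower after scaling; median 0.11, and −0.12 after scaling). Higd1a, an inner membrane protein induced by hypoxia, rose 1.44-fold (13.5, 18.2 and 15.6 FPKM in PKI libraries, against 11.5, 10.3 and 11.1 FPKM in WT libraries; limma, adjusted p = 0.0146). Phb, which encodes a prohibitin of the ring scaffold around inner membrane proteases, and Afg3l2, a subunit of such a protease, rose 1.16-fold and 1.17-fold (limma, adjusted p = 0.0389 and 0.0442). None of the 3 was called after scaling (log2 0.23, −0.06 and −0.05; adjusted p = 0.190, 0.598 and 0.712), and there Slc25a46, an outer membrane protein of mitochondrial dynamics, was lower (log2 −0.28, adjusted p = 0.0356).

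Of 13 tested fission adaptors and regulators, 3 rose and 1 fell (0 higher and 2 lower after scaling; median 0.16, and −0.07 after scaling). Mtfp1, which encodes an inner membrane protein linked to fission, was at 35.8, 34.0 and 36.0 FPKM in PKI libraries, against 40.5, 43.0 and 43.4 FPKM in WT libraries. It fell without overlap (log2 change −0.26, SE 0.06; limma, adjusted p = 0.0160; −0.52 after scaling, adjusted p = 0.00277). Dnm2, the dynamin of endocytosis, and Senp5, a SUMO protease that acts on DRP1, rose 1.46-fold and 1.49-fold (limma, adjusted p = 0.0124 and 0.0358). After scaling both were not called (log2 0.23 and 0.19; adjusted p = 0.168 and 0.274), and Akap1, an outer membrane anchor of protein kinase A, was lower (log2 −0.33, adjusted p = 0.00810). The DRP1 receptor genes Mief1 and Mief2 had log2 changes of 0.37 and 0.05 and did not pass (limma, adjusted p = 0.131 and 0.743). After scaling their changes were 0.20 and −0.18, again without a call (limma, adjusted p = 0.518 and 0.289).

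Of 4 genes of mitochondrial transport, 1 rose and 0 fell (1 higher and 2 lower after scaling; median 0.05, and −0.19 after scaling). Trak2, an adaptor between mitochondria and microtubule motors, was at 29.62, 32.94 and 32.04 FPKM in PKI libraries, against 22.097, 22.09 and 19.64 FPKM in WT libraries. It rose without overlap (log2 change 0.55, SE 0.07, limma adjusted p = 0.00271). Trak2 was the gene of the 5 lists called higher after scaling as well (log2 0.28, limma adjusted p = 0.0368). Rhot2 and Trak1 were lower after scaling (log2 −0.33 and −0.27, limma adjusted p = 0.0165 and 0.0317). Of 10 genes of the MICOS complex and cristae, 1 rose and 0 fell (0 higher and 3 lower after scaling; median 0.05, and −0.22 after scaling). The gene that rose was Dnajc11, a partner of that complex, at 3.33 ± 0.0825 FPKM in PKI libraries and 2.61 ± 0.209 FPKM in WT libraries (SD, n = 3 each; limma, adjusted p = 0.0255; 0.613 after scaling). The genes lower after scaling were Immt and Apoo, subunits of MICOS, and Samm50 of the outer membrane sorting machinery (log2 −0.35, −0.22 and −0.23; limma, adjusted p = 0.0439, 0.0451 and 0.0286).

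**Figure D4:**
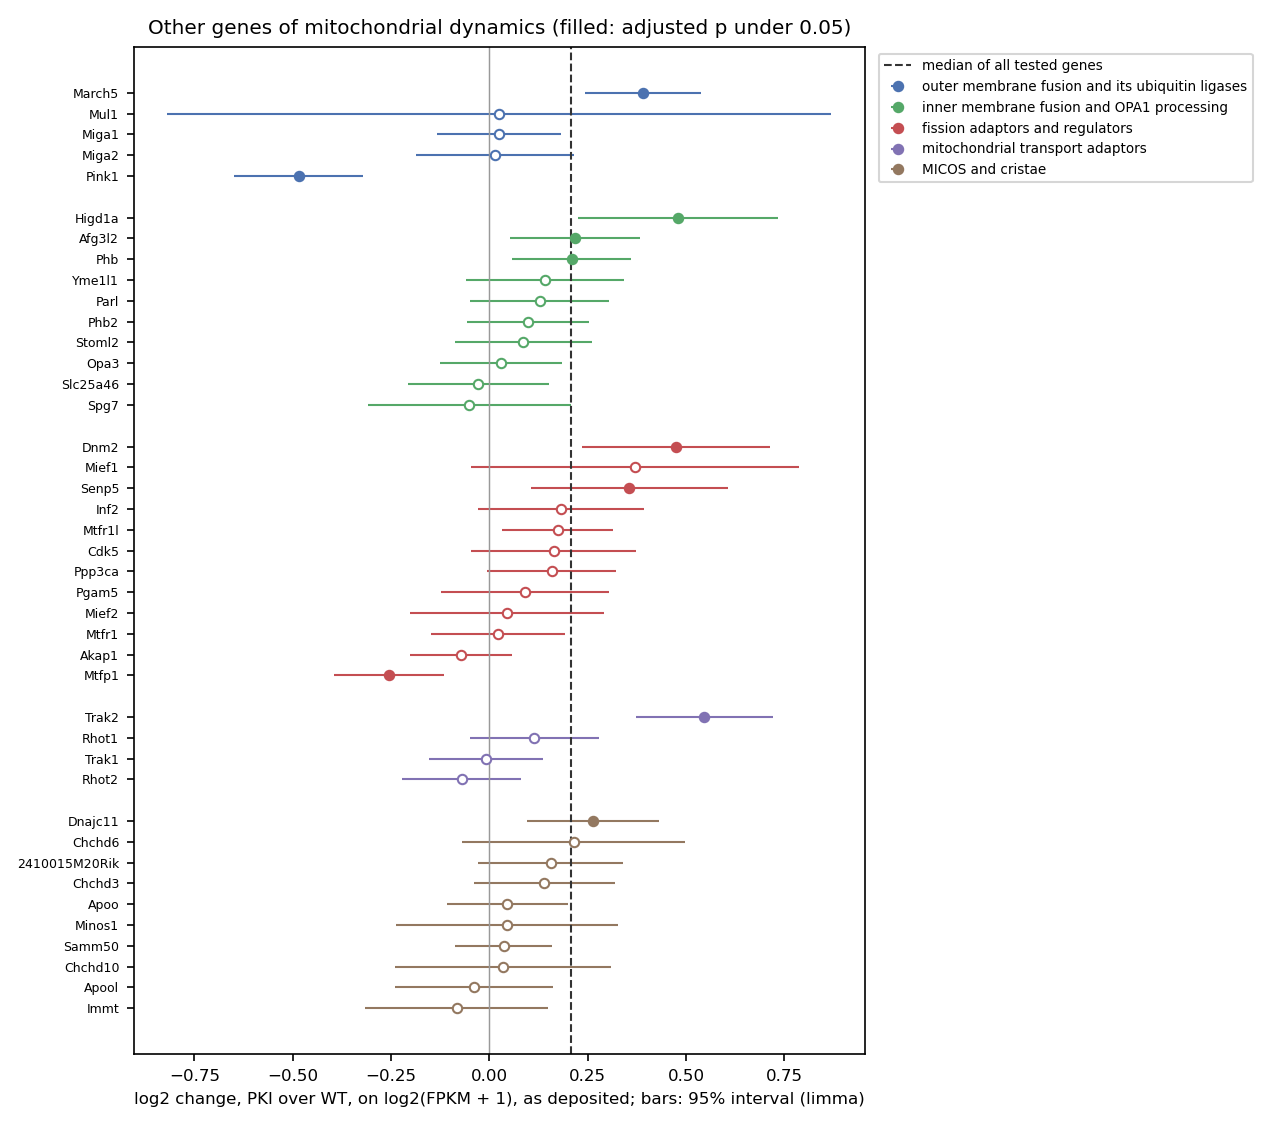
Log2 change, PKI over WT, as deposited (horizontal axis, log2(FPKM + 1) scale, 95% intervals from limma) of 41 of the 42 tested genes of 5 lists, coloured by list; filled points passed at an adjusted p under 0.05, and the dashed line is the median of all tested genes, 0.21. Pink1 and Mtfp1 are the filled points below 0, and Trak2 has the highest value, 0.55.

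Markers of some other cell types differed between the groups. Of all tested genes, 36.4% were called higher and 2.96% lower as deposited, and 8.54% and 8.23% after scaling. The median log2 change of the endothelial markers as deposited was 0.19, near the 0.21 of all tested genes. Fibroblast markers were higher in PKI libraries in 4 of 5 genes (summed level 188 to 230 FPKM in PKI libraries, against 76.0 to 109 FPKM in WT libraries), macrophage markers in 5 of 5 (166 to 182 FPKM in PKI libraries, against 52.9 to 85.8 FPKM in WT libraries), smooth muscle and pericyte markers in 3 of 5 (178 to 214 FPKM, against 115 to 143 FPKM in WT) and endothelial markers in 1 of 5 (65.9 to 73.9 FPKM, against 60.8 to 66.4 FPKM in WT). Red blood cell markers were lower in 4 of 4 (209 to 263 FPKM, against 296 to 425 FPKM in WT). After scaling, 4 of 5 fibroblast, 4 of 5 macrophage, 1 of 5 smooth muscle and pericyte and 0 of 5 endothelial markers were higher, and 1 endothelial and all 4 red blood cell markers were lower. Cardiomyocyte markers were high in all libraries, with 1 of 5 higher (Actc1) and 1 lower (Pln). They summed to 6828 to 7601 FPKM in PKI libraries, against 5960 to 6660 FPKM in WT libraries. Actc1 was the largest part of these sums, at 4789, 4280 and 4728 FPKM in PKI libraries, against 3826, 3860 and 3386 FPKM in WT libraries. Myh6, the next largest, overlapped (1909, 1655 and 1831 FPKM in PKI libraries, against 1860, 1823 and 1637 FPKM in WT libraries), as did Tnnt2 and Ryr2. After scaling, 0 of the 5 cardiomyocyte markers were higher and 3 were lower, and their median log2 change was −0.27, beside 0.00 as deposited. Of 3 atrial markers, 0 passed in either fit (10.1 to 115 FPKM in PKI libraries and 60.2 to 135 FPKM in WT libraries), but their levels were uneven between libraries. Myl7 was at 6.61, 14.8 and 81.9 FPKM in PKI libraries, against 74.3, 40.5 and 91.3 FPKM in WT libraries. Sln was at 1.02, 0.901 and 8.99 FPKM in PKI libraries, against 10.2, 6.02 and 16.2 FPKM in WT libraries. The skeletal muscle marker Myh4 was listed at 0 in all 6 libraries (list sum at most 0.419 FPKM in PKI libraries and 0.126 FPKM in WT libraries). The part of these cell types in the values of the fusion and fission genes was not tested.

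RefSeq promoter windows (GRCm38.p6), reaching from 250 bases before to 50 bases after a start site, were listed for all 7 genes, 12 windows in all, some of which overlap. They were searched on both strands for AAGGTCA, the core element of estrogen-related receptors, and for the element of NRF1, GCGCA followed by any base and GCGC, factors through which PGC-1α acts. The first was in 0 of the 12 windows and in 4.72% of the 32851 windows of the table. The second was in 2 of the 12, those of Opa1 and Oma1, and in 4.60% of all windows. In Opa1 the match, which reads the same on both strands, begins 59 bases before the start site, and in Oma1 it begins 23 bases before it, on the opposite strand. Windows are shown on the strand of the gene, 5′ to 3′, for both mitofusins, the paralogs with the highest levels of the 7 genes, and for the pair of genes with a match, which is in capitals. The Mfn2 window is chr4:147904649-147904948 (minus strand), the Mfn1 window chr3:32529232-32529531 (plus), the Opa1 window chr16:29579084-29579383 (plus) and the Oma1 window chr4:103313596-103313895 (plus).
Mfn2: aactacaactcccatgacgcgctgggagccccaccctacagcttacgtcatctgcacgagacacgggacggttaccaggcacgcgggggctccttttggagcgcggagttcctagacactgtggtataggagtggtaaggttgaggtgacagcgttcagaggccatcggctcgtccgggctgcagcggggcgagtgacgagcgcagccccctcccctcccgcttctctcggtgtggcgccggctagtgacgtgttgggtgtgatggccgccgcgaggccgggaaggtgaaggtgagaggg
Mfn1: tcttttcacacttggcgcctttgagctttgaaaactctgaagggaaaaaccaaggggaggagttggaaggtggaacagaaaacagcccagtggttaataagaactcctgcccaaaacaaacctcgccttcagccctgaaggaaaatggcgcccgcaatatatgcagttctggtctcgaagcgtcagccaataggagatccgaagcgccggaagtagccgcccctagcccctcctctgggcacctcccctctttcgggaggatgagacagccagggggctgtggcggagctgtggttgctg
Opa1: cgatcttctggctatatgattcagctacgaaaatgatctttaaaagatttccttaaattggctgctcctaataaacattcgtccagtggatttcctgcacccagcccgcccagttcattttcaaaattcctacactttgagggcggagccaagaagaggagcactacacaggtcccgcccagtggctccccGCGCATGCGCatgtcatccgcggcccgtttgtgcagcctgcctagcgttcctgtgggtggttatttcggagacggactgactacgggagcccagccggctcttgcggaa
Oma1: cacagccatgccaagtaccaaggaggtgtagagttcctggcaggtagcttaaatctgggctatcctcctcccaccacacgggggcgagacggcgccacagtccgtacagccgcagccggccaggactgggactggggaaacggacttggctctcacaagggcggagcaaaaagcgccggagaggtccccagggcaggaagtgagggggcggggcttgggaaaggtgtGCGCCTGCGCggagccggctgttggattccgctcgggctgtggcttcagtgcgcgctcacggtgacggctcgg
The share of G and C was 64.7% for Mfn2, 55.3% for Mfn1, 53.3% for Opa1 and 65.7% for Oma1, beside a median of 52.7% over all windows. These 4 windows held 27, 12, 18 and 23 CG dinucleotides, beside a median of 7. A match is a description of the letters and not evidence of binding, and an absent match says only that the letters are not in the window.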

How the data were processed

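RNA was sequenced in 3 PKI and 3 WT libraries; groups came from the sample titles. Per the labels' protocols, hearts were flash frozen, RNA was isolated with Trizol and libraries were made with the Illumina TruSeq RNA kit. The deposited values are FPKM, 1 per gene and library, named so by the authors' table. Per the submitters' processing notes, CASAVA, Bowtie 0.12.2 and mm9 were used, with no role given; the program behind the FPKM is not given in the sources used here. FPKM are not counts. Each other library was set against WT replicate 1 over genes above 0 and below 0.15 FPKM in both. At most 2.90% of these genes shared the commonest log2 ratio between the libraries. The depth therefore cannot be given, nor a counting interval.

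The table was fitted on log2(FPKM + 1), which understates the change of low genes, with limma 3.58.1 in R 4.3.3 (mean of at least 1 FPKM, variance trend, no block, two-sided, Benjamini-Hochberg adjustment over 9907 genes, called at an adjusted p under 0.05). The fit was tested on simulated data. Fold values are ratios of mean FPKM. Ratios of pairs of genes within a library were compared by exact permutation tests. "After scaling" means FPKM divided by median-of-ratios size factors over tested genes above 0 in all libraries. Other alternatives were a pseudocount of 0.1, no filter, a minimum mean of 5 FPKM, scaling to the total without mitochondrial genome genes and their nuclear copies, no trend, the replicate number as a block, and each library left out in turn.

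Named were the 7 genes, Ppargc1a, Cs, Vdac1, Tfam, for each list up to 3 called genes a direction, by p, and for each of the 7 genes the 2 genes closest to it in pattern. A gene that meets the rule is not reported here. Genes called only after scaling, Mief1, Mief2, Park2, Pld6 and single markers were named after their values were seen. The 7 genes and the lists were chosen with earlier results of these data known. Positions are those of the same identifiers in GENCODE M21 (GRCm38; 99.72% of identifiers matched), unconverted; promoter sequences are RefSeq's.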

Additional observations from a re-analysis of the deposited data

How the results depend on the processing

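As deposited, 3609 genes were called higher and 293 lower. With a minimum mean of 5 FPKM (3935 genes tested) the counts were 1739 and 186, after median-of-ratios scaling 846 and 815, and with scaling to the nuclear total 1019 and 603. Leaving out a library gave 2207 to 3178 higher and 165 to 261 lower. The log2 change of Mfn2 kept its sign in every alternative run (−0.22 to −0.29 leaving out a library; −0.46 with scaling to the nuclear total, limma adjusted p = 0.00397), and its adjusted p ranged from 0.00285 to 0.0682 over the alternatives. Opa1 was called lower at −0.30 after median-of-ratios scaling and at −0.24 with the nuclear total (limma, adjusted p = 0.0140 and 0.0456), with −0.07 to −0.01 leaving out a library. Signs reversed, without a call, after median-of-ratios scaling for Mfn1 (−0.21), Dnm1l (−0.10), Fis1 (−0.13), Mff (−0.0075) and Oma1 (−0.16), and with the nuclear total for Mfn1 (−0.15), Dnm1l (−0.039), Fis1 (−0.076) and Oma1 (−0.11). Both scalings lower PKI values against WT by construction. Mfn1 ranged from −0.048 (without PKI replicate 2) to 0.12 leaving out a library. Mff could not be fitted at a minimum mean of 5 FPKM. The other settings, a pseudocount of 0.1, no filter and no trend, changed no call among the 7 genes. Ratios within a library moved by less than the spread between replicates in every alternative, and the sign of Dnm1l over Mff (−0.21 to 0.03) and Dnm1l over Fis1 (−0.02 to 0.08) depended on the library left out. The labels number samples 1 to 3 in both groups without saying that a number is shared. Deviations of same-numbered libraries correlated across genes at r of −0.10, 0.00 and 0.05, and not every library correlated best with its own number, so the numbers were not taken as pairs. With the number as a replicate block, Mfn2 had the same log2 change of −0.25 and an adjusted p of 0.0508 (limma), and 2625 genes were called higher and 224 lower. Depth is unknown, and the number of libraries limits the precision.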

Other observations

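For each of the 7 genes, the 2 named genes with the closest pattern were taken by Pearson r of log2(FPKM + 1) over the 6 libraries, which share the difference between the groups, so r is a description. Mfn2 was closest to Pfkm, the muscle phosphofructokinase (r = 0.996), and to Hbb-bt, a beta globin (r = 0.991). Pfkm was at 166, 167 and 161 FPKM in PKI libraries, against 180, 193 and 188 FPKM in WT libraries, and fell (log2 change −0.18; limma, adjusted p = 0.0291). Mfn1 was closest to Cds2 and Gatad1 (r = 0.991 and 0.987), Opa1 to Ubxn2a and Tacc2 (0.963 and 0.952), Dnm1l to Mrpl11 and Dnajc9 (0.992 and 0.989), Fis1 to Ubr1 and Baz2b (0.996 and 0.995), Mff to Capza2 and Etfrf1 (0.989 and 0.986) and Oma1 to Mrpl15 and Supt20 (0.996 and 0.992). The number of tested genes with r of at least 0.95 was 198 for Fis1, 96 for Oma1, 68 for Mff, 65 for Dnm1l, 56 for Mfn2, 16 for Mfn1 and 4 for Opa1.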
